A study of Homo sapiens with 8 samples.

Results

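TMEM14A, TMEM14B and TMEM14C encode small membrane proteins of 1 family, and they were measured here by 5 probes of the 58201 on an expression array, that is 3 genes of 43317. TMEM14C was selected on the values reported here, because its RNA was lower under miR-99a-3p in both PC3 and FaDu cells, and its relatives were added for contrast. These ratios are therefore a description and carry no test. TMEM14C is a mitochondrial inner membrane protein that brings protoporphyrinogen IX into the matrix, where the last steps of heme synthesis take place. CPOX makes that intermediate, PPOX oxidises it and FECH inserts the iron. TMEM14B has been linked to the proliferation of neural progenitors, and TMEM14A to restraint of apoptosis at mitochondria. A mature miRNA guides the silencing complex to transcripts that pair with its seed, and miR-99a-3p is the passenger strand of the miR-99a duplex.

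The study hybridised 8 arrays, each with mock RNA (cells of the same line without transfection, Cy3) against RNA of transfected cells (Cy5). FaDu cells, from a hypopharyngeal squamous cell carcinoma, received miR-99a-5p or miR-99a-3p. PC3 prostate cancer cells received miR-150-5p, miR-150-3p, miR-99a-3p or miR-100-3p, and PANC-1 pancreatic cancer cells received si-FOXQ1-1 or si-FOXQ1-2, which are siRNAs against the transcription factor FOXQ1. Each condition has 1 array and no dye swap, so dye and transfection cannot be told apart and no value has a replicate check. The labels give the mock cells as not transfected, with no control RNA, so the effect of transfection itself cannot be told apart from that of the transfected RNA.

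All values are log2 ratios of transfected over mock, with the error that the scanner software gives for a spot, which covers technical error only. A gene, represented by its brightest probe, was taken as detected where the software set either channel well above background, and ratios past -1 or 1 were counted. The 8 arrays had 60901 gene spots each, of which 81 to 178 were flagged, and 19184 to 20919 detected genes. FOXQ1 was at -2.16 (error 0.29) and -2.12 (error 0.28) on the siRNA arrays. The squamous markers KRT5, KRT14, KRT6A, TP63 and DSG3 were well above background in mock FaDu cells, whereas KLK3, a prostate marker, was not in mock PC3 cells. The mock channels of the miR-150-5p and miR-150-3p arrays correlated at 0.999 with each other, as did those of the miR-99a-3p and miR-100-3p arrays, against 0.996 to 0.997 between these pairs. Whether the PC3 arrays shared mock RNA was not stated.

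The mature miRNAs are shown first because the 3p strands of miR-99a and miR-100 nearly share a seed. Sequences are from RefSeq (GRCh38.p14), 5′ to 3′, with the seed, bases 2 to 8, in capitals.
hsa-miR-99a-3p: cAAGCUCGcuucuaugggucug
hsa-miR-100-3p: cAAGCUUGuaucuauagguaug
hsa-miR-99a-5p: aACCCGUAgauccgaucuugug
The first lies at chr21:16539138-16539159 and the second at chr11:122152240-122152261. The seeds of miR-99a-3p and miR-100-3p are equal at 6 of 7 bases, whereas that of miR-99a-5p equals the miR-99a-3p seed at 2 of 7. In the table of 2370 mature names, 1 other miRNA, hsa-miR-99b-3p, has the miR-99a-3p seed, and none has that of miR-100-3p.

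The probes within the coding sequence are shown because the 3 genes must be told apart by them. Their hg19 positions, from the array annotation, are chr6:10725210-10725269 for TMEM14C, chr6:10751451-10755417 for TMEM14B, across an intron, and chr6:52548899-52548958 for TMEM14A.
TMEM14C: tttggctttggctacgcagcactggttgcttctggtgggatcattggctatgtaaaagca
TMEM14B: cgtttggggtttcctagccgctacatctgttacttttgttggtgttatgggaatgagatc
TMEM14A: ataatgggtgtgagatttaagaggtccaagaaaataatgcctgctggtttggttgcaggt
The longest run of bases shared between these probes is 7, between TMEM14A and TMEM14C, and the TMEM14B and TMEM14C coding probes share at most 5. TMEM14C and TMEM14B each had a further probe nearer the 3′ end, at chr6:10731156-10731215 and chr6:10757032-10757091. The array annotation assigns the TMEM14C probes to different RefSeq transcripts, and both TMEM14B probes to the same transcript. The 3′ probes of TMEM14C and TMEM14B are more alike: they share a run of 15 bases, with 28 of 36 bases identical in their best ungapped overlap. Cross-hybridisation between the transcripts was not tested. The site CGAGCTT, complementary to the miR-99a-3p seed, was searched on the transcript strand and is in none of the 5 probes. It is in 47 of all 58201 probes (0.0808%).

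TMEM14C was lower under miR-99a-3p at both probes in both lines. In PC3 cells the coding probe gave a signal of 15500 in mock and 4260 in transfected cells, a log2 ratio of -1.86 (error 0.27), or 3.63-fold lower. In FaDu cells the same probe gave 16500 and 3850, a ratio of -2.10 (error 0.28), or 4.28-fold lower. The 3′ probe was lower still, at -2.50 (error 0.31) in PC3 and -3.07 (error 0.35) in FaDu cells, which is 5.67-fold and 8.42-fold lower. Both TMEM14C probes were thus below -1 on both arrays, where 7.84% of detected probes in PC3 and 10.7% in FaDu were. Counted by gene, 7.39% of detected genes in PC3 and 9.37% in FaDu were below -1, and 0.698%, 122 of 17478, were so in both lines. Among genes well above background in both channels, as TMEM14C was, 697 of 17452 in PC3 and 903 of 16482 in FaDu were below -1. In both lines 51 of 14882 such genes were. Squamous markers were also lower on the FaDu miR-99a-3p array, 4 of 5 below -1, and were not detected on the PC3 miR-99a-3p array. Their part in the FaDu ratio was not tested.

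Of the other arrays, that of miR-100-3p in PC3 cells had the next lowest TMEM14C ratio, -0.56 (error 0.21) at the coding probe and -0.49 at the 3′ probe. It exceeded its error and was the 657th lowest of 17060 genes well above background in both channels. The relatives were about as low on that array, with the TMEM14B coding probe at -0.49 and TMEM14A at -0.56. The TMEM14C coding probe differed from these by -0.07 and -0.01, each smaller than its combined error of 0.3. Relative to the average PC3 mock level, the TMEM14C coding probe under miR-100-3p was at -0.62. Less the mean of the other PC3 arrays it was at 0.15, but that mean includes the -1.86 of miR-99a-3p. The value of 0.15 therefore does not show that the decrease was absent. With the miR-150 strands in PC3 cells the coding probe was at -0.24 (5p) and -0.06 (3p). The 5p strand of miR-99a left it at -0.18 in FaDu cells, and the FOXQ1 siRNAs gave -0.07 and 0.37 in PANC-1 cells. None of these 6 ratios was past -1, against 3.34% of detected genes for miR-100-3p, 4.49% for the 5p and 6.68% for the 3p strand of miR-150, 4.86% for miR-99a-5p, and 3.31% and 3.29% for the siRNAs. Among genes well above background in both channels, as TMEM14C was, far fewer were below -1: 57 of 17060 for miR-100-3p, 138 of 17629 and 402 of 17605 for the miR-150 strands, 26 of 15771 for miR-99a-5p, and 60 of 16413 and 62 of 16577 for the siRNAs.

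**Figure D1:**
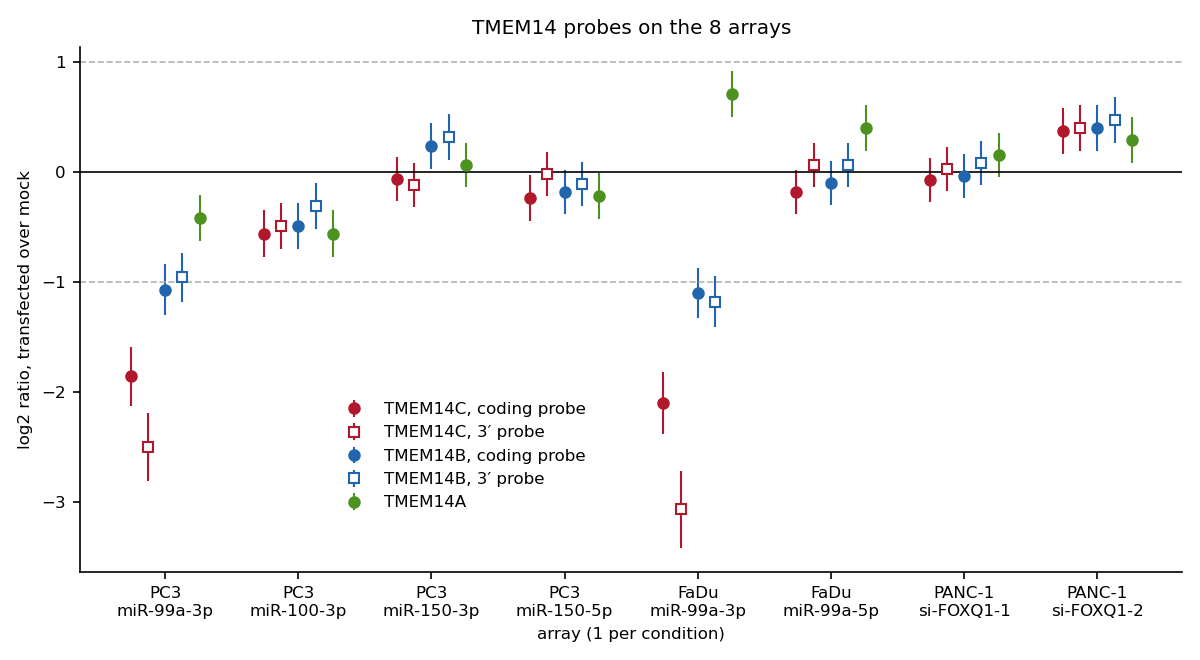
Log2 ratio of transfected over mock (y axis) for the 5 TMEM14 probes on the 8 arrays (x axis, 1 array per condition). Bars are the spot error and dashed lines mark -1 and 1. Both TMEM14C probes lie between -1.86 and -3.07 under miR-99a-3p and between -0.56 and 0.40 on the other 6 arrays.

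TMEM14C probes differed from each other on the miR-99a-3p arrays. The 3′ probe was below the coding probe by a log2 difference of -0.98 (combined error 0.45) in FaDu and -0.64 (combined error 0.41) in PC3 cells. On the other 6 arrays this difference was between -0.07 and 0.25, each smaller than its combined error. For TMEM14B the corresponding difference was between -0.09 and 0.18 over all 8 arrays, so its probes differed by less than their error. The TMEM14C probes are annotated to different RefSeq transcripts and the TMEM14B probes to the same transcript. The part of this in the differences was not tested.

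TMEM14B was lower on the same arrays, to a smaller extent. In PC3 cells its coding probe went from 12900 in mock to 6130 in transfected cells, a ratio of -1.07 (error 0.23), or 2.10-fold lower. In FaDu cells it went from 11500 to 5380, a ratio of -1.10 (error 0.23), or 2.14-fold lower. The 3′ probe, which is the brighter one, was at -0.96 (error 0.22) and -1.18 (error 0.23), so that in PC3 the side of -1 depended on the probe. On the other arrays the coding probe lay between -0.49, under miR-100-3p, and 0.40, under si-FOXQ1-2. The TMEM14C coding probe was below that of TMEM14B by a log2 difference of -0.79 (combined error 0.35) in PC3 and -1.0 (combined error 0.36) in FaDu cells. Elsewhere the difference was between -0.08 and -0.03, except under miR-150-3p, where it was -0.30 with a combined error of 0.29.

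TMEM14A went the other way in FaDu cells. Its probe went from a signal of 1690 in mock to 2770 under miR-99a-3p, a ratio of 0.71 (error 0.21), and was also above 0 under miR-99a-5p, at 0.40 (error 0.21). In PC3 cells it was at -0.42 (error 0.21) under miR-99a-3p, -0.56 under miR-100-3p, and -0.22 and 0.06 under the 5p and 3p strands of miR-150. In PANC-1 cells it was at 0.15 and 0.29. No array put TMEM14A past -1 or 1, against 4.23% of detected genes above 1 in PC3 and 8.25% in FaDu under miR-99a-3p. A further gene named for the family, TMEM14E, a transcribed pseudogene under its current symbol TMEM14EP, was dim, with signals from 11.1 to 102 over both channels of the 8 arrays, and is not read further.

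**Figure D2:**
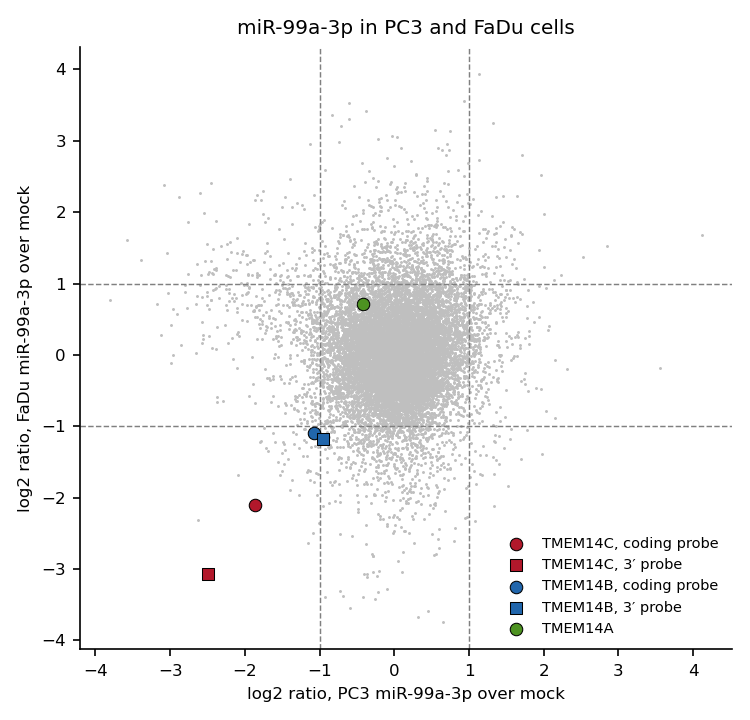
Log2 ratio under miR-99a-3p in PC3 cells (x axis) against FaDu cells (y axis) for genes well above background in both channels of both arrays (grey), with the 5 TMEM14 probes in colour and dashed lines at -1 and 1. TMEM14C lies at the lower left, at -1.86 and -2.10 for its coding probe, TMEM14B near -1 on both axes, and TMEM14A at -0.42 and 0.71.

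The place of each gene among all others can be given for genes well above background in both channels. TMEM14C was the 140th lowest of 17452 in PC3 and the 111th lowest of 16482 in FaDu cells. Ordered by the higher of the PC3 and FaDu ratios over the 14882 genes measured on both arrays, TMEM14C was at rank 2, TMEM14B at rank 55 and TMEM14A at rank 11953. Over 18883 probes ordered in this way, the TMEM14C 3′ probe was at rank 1 and its coding probe at rank 5. TMEM14C is also in the study's table of putative miR-99a-3p targets. That table was limited to genes with a predicted miR-99a-3p site in the 3′-UTR, and TMEM14C is listed with such a site. Its genes were then chosen on the PC3 array, so the table is no independent evidence for the PC3 ratio. The predicted site of TMEM14C was not tested here. Of the other 29 genes of that table with a probe, 26 were below -1 in PC3 cells, with a median of -2.50. In FaDu cells 24 of them were detected and 2 were below -1, where 9.37% of all detected genes were. Their median there was 0.51, against -0.03 for all detected genes.

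Levels were compared within a probe across the lines, on a normalized log2 scale (loess within and Aquantile between arrays). The mock level of the TMEM14C coding probe was 13.12 ± 0.03 (SD, n = 4 arrays) in PC3 cells, from 13.32 to 13.38 in FaDu and from 13.82 to 13.85 in PANC-1 cells. The 3 ranges did not overlap, so the order was PC3, FaDu, PANC-1. The TMEM14B coding probe was at 12.82 ± 0.05 (SD, n = 4 arrays) in PC3 and at 12.87 to 12.88 in FaDu, which did not differ beyond that spread, and at 13.71 on both PANC-1 arrays. TMEM14A had another order: 11.15 ± 0.06 (SD, n = 4 arrays) in PC3, 10.60 to 10.73 in PANC-1 and 10.28 to 10.32 in FaDu cells. Mock channels of 1 line may be the same RNA, so these SDs may be technical.

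**Figure D3:**
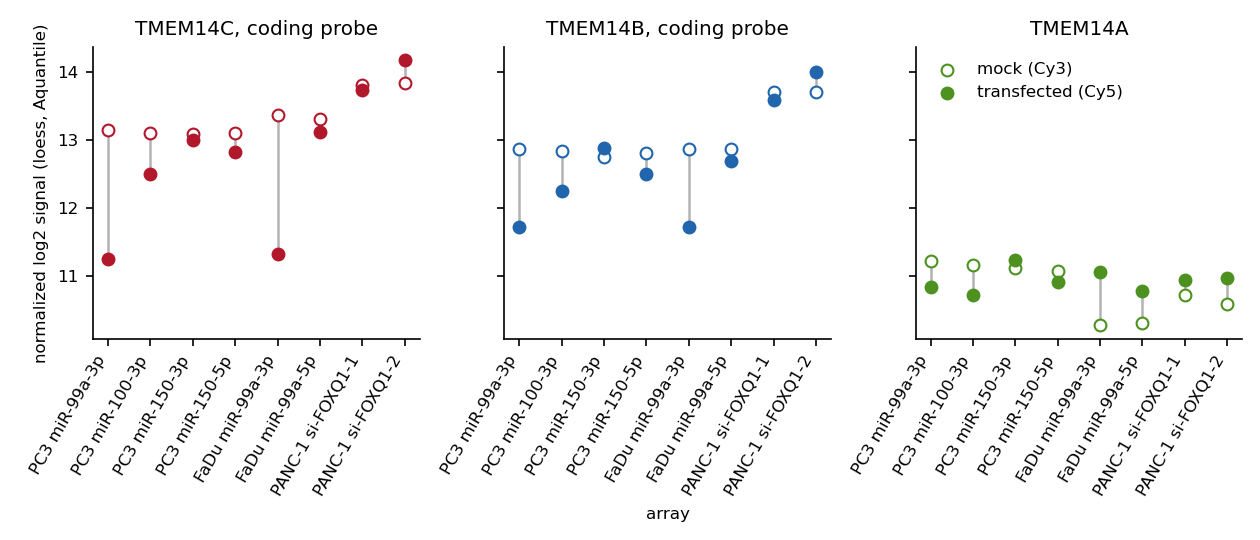
Normalized log2 signal (y axis) of the TMEM14C and TMEM14B coding probes and the TMEM14A probe on each array (x axis), open circles for mock and filled circles for transfected cells, joined per array. TMEM14C went from 13.15 to 11.26 in PC3 and from 13.38 to 11.33 in FaDu cells under miR-99a-3p.

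The 4 PC3 mock channels also gave a common control. Against their mean, the TMEM14C coding probe in transfected PC3 cells was at -1.85 under miR-99a-3p and -0.62 under miR-100-3p, with -0.29 and -0.12 for the 5p and 3p strands of miR-150. All 4 values lay below each of the 4 mock channels. The mock channels are all Cy3 and the transfected channels all Cy5, so a dye effect cannot be told apart here. The mock channels may also be the same RNA, and so are not 4 separate controls. TMEM14B and TMEM14A lay below all 4 mock channels under every PC3 transfection but that of miR-150-3p, and above all 4 there, where the TMEM14B coding probe was at 0.07 and TMEM14A at 0.09.

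The pattern over the 8 arrays was compared with that of 13242 genes well above background in both channels on all 8. TMEM14B was at rank 2 by Pearson correlation with TMEM14C (r = 0.984), after ANXA7 (r = 0.989), an annexin that binds phospholipids with calcium. Without the miR-99a-3p arrays r was 0.939 for TMEM14B and 0.876 for ANXA7. The remaining 8 of the 10 most alike were ZNF670, NCOA4, FBXO22, DYNLRB1, ZDHHC12, IPO7, ASCC3 and LAMTOR1, with r from 0.976 to 0.964. Without the miR-99a-3p arrays, on which TMEM14C was selected, r for these 8 was lower, from 0.525 for LAMTOR1 to 0.835 for ASCC3. For NCOA4 it was 0.742. NCOA4 is the receptor that delivers ferritin, the iron store, to autophagy, and its ratios were -0.50 in PC3 and -0.65 in FaDu cells under miR-99a-3p. TMEM14A was at rank 7108 (r = -0.025), and its r was 0.753 without those arrays. The arrays share dye orientation and, by the slide number in the scanner output, 1 slide, and these correlations are a description over 8 points.

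TMEM14B and TMEM14C lie next to each other on chromosome 6, whereas TMEM14A lies elsewhere on it. Since both were lower on the same arrays, the 250 bases before each RefSeq start were compared (GRCh38.p14, plus strand). The longest runs that the TMEM14C window shares with the 2 TMEM14B windows are shown.
TMEM14C and first TMEM14B window: ttggccactcaggattggacctgggactg
TMEM14C and second TMEM14B window: ggaagcacagagattccccgcc
The first run, of 29 bases, is at chr6:10722876-10722904 before TMEM14C and at chr6:10747509-10747537 before TMEM14B, at the edge of that window. On either strand, TMEM14B and TMEM14C are the 2 symbols of 27305 whose windows hold it. The second, of 22 bases, is at chr6:10722938-10722959 and chr6:10747577-10747598, and 3 symbols hold it, the third being TMEM14B-DT, the divergent transcript at the TMEM14B start. With the first run aligned and no gaps, 47.9% of 194 bases were identical. The TMEM14A window shared at most 9 bases in a row with that of TMEM14C.

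Other genes of the region were few and mostly dim. Of 8 listed neighbours (PAK1IP1, C6orf52, GCNT2, MAK, SYCP2L, ELOVL2, SMIM13 and NEDD9), 6 were detected in PC3 under miR-99a-3p, with a median of -0.39, 5 below 0 and 1 below -1. In FaDu 5 were detected, with a median of 0.19, 2 below 0 and 1 below -1. All detected genes had medians of 0.02 and -0.03, with 7.39% and 9.37% below -1. These were GCNT2 in PC3 and NEDD9 in FaDu, each not well above background in transfected cells, so no fold is given. Of the neighbours of TMEM14A with a probe, 3 were detected in PC3 and 2 in FaDu, and none was past -1 or 1, too few to be read against the shares of all detected genes, which were 7.39% and 9.37% below -1 and 4.23% and 8.25% above 1.

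The wider heme pathway was described by a list. Of 26 genes for heme synthesis, transport and breakdown, 24 were detected on each miR-99a-3p array. In PC3 cells 0 were past -1 or 1, where 7.39% of all detected genes were below -1 and 4.23% above 1. Among genes well above background in both channels there, 697 of 17452 were below -1 and 730 above 1. Of the listed genes 18 were below 0 in PC3, and their median was -0.20 against 0.02 for all detected genes. Under miR-100-3p in PC3 cells 18 of 23 were also below 0, with a median of -0.22 against -0.02. Under the 5p and 3p strands of miR-150 the list medians were -0.03 and 0.03. In FaDu cells under miR-99a-3p 4 of the listed genes were below -1 and 2 above 1, where 9.37% and 8.25% of all detected genes were. Among genes well above background in both channels there, 903 of 16482 were below -1 and 1265 above 1. Of the listed genes 13 were below 0 in FaDu, with a median of -0.20 against -0.03 for all detected genes. With normexp and loess, FECH (-0.99) and ALAS2 (-0.30) were no longer below -1 in FaDu cells. On the same array 4 of the 5 squamous markers were below -1, with a median of -1.66 and values from -2.83 for KRT6A to -0.78 for TP63, and their part in the FaDu values was not tested.

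The enzymes next to TMEM14C in the pathway are given by their order. CPOX, upstream, was at -0.01 (error 0.20) in PC3 and 0.85 (error 0.22) in FaDu cells. PPOX was at -0.40 (error 0.21) and -0.60 (error 0.21), a difference within the error. FECH, the last enzyme, was at -0.34 (error 0.21) in PC3 and -1.25 (error 0.24) in FaDu cells. ALAS2, the erythroid form of the first enzyme, was also below -1 in FaDu, but not well above background in transfected cells.

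Among the transporters, the mitochondrial iron importer SLC25A37 was at -0.28 (error 0.21) in PC3 and 1.54 (error 0.25) in FaDu cells. PGRMC1, a heme-binding membrane protein, was at 0.55 (error 0.21) and 1.29 (error 0.24). In heme breakdown, HMOX1, the inducible heme oxygenase, was at 0.10 (error 0.20) in PC3 and -3.04 (error 0.35) in FaDu cells, the lowest of the list. BLVRB, a biliverdin reductase, was at -0.62 (error 0.21) and -1.09 (error 0.23).

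**Figure D4:**
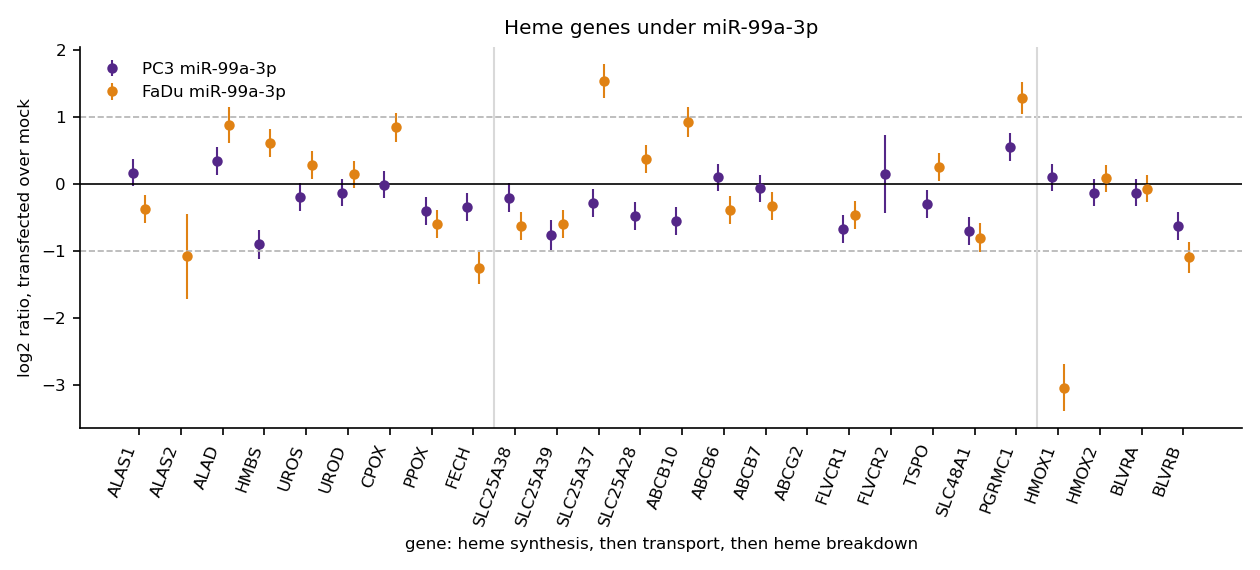
Log2 ratio of transfected over mock (y axis) under miR-99a-3p in PC3 and FaDu cells for the listed heme genes (x axis), detected genes only. Bars are the spot error, and dashed lines mark -1 and 1. No PC3 value is past a line, and HMOX1 in FaDu cells is the lowest, at -3.04.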

How the data were processed

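RNA of 8 mock and transfected pairs was hybridised to 2-colour Agilent arrays, 1 array per pair. The authors deposited Feature Extraction 10.7.3.1 scanner files with hg19 annotation, holding background-subtracted, dye-normalized intensity values and the log10 ratio of Cy5 over Cy3 per spot, and a series table with the same ratios. From these, the deposited log10 ratio was multiplied by 3.3219 to give a log2 ratio, unflagged spots of a probe were averaged, and the brightest probe stood for a gene. The name rule for the family also matched TMEM140 to TMEM149, which are no relatives and were left out. Mock and transfected levels, and an alternative ratio, came from limma 3.58.1 (R 4.3.3): normexp with offset 50, loess, and Aquantile between arrays, tested on simulated data first. Other steps used Python 3.11.15. No replicates exist, so no test was made, and arrays have no read depth: their number limits the precision.

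Members and gene lists were chosen with earlier results of these data known. Genes named were the TMEM14 probes, the 10 genes most like TMEM14C, FOXQ1, CPOX, PPOX, FECH, the genomic neighbours, and list members past -1 or 1 on either miR-99a-3p array. The study's target table is given as counts.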

Additional observations from a re-analysis of the deposited data

Results flagged for a closer look

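TMEM14A had ratios of opposite sign under miR-99a-3p, -0.42 (error 0.21) in PC3 and 0.71 (error 0.21) in FaDu cells, a difference of 1.14 on the log2 scale with 1 array a line, and this difference was not tested. Less the mean of the other PC3 arrays the PC3 value was -0.19, within its error.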

How the results depend on the processing

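With 1 array per condition no replicate could be left out, and arrays give no error between cultures. Each ratio already pairs mock and transfected RNA on 1 array. A paired test across arrays was not possible at 1 array per condition, and no test was run. Of the recomputed ratios of the 3 genes, 114 moved by less than the spot error, 11 by more, and 3 that had exceeded their spot error changed sign. Less the mean of the other PC3 arrays, TMEM14C was at 0.59 for miR-150-5p, 0.83 for miR-150-3p, 0.15 for miR-100-3p and -1.57 for miR-99a-3p, and TMEM14A at 0.09 for miR-150-5p and -0.19 for miR-99a-3p. Each positive TMEM14C value comes from a mean that includes the -1.86 of miR-99a-3p. Against the mean PC3 mock, TMEM14C was at -0.29 for miR-150-5p, -0.12 for miR-150-3p, -0.62 for miR-100-3p and -1.85 for miR-99a-3p. The mean of probes put TMEM14C at -2.18 in PC3 and -2.59 in FaDu cells, and the lowest probe at -2.50 and -3.07. Genes below -1 in both lines, 122 as reported, numbered 31 with normexp and loess, 51 with both channels above background, 326 with no filter, 292 by the lowest probe, 541 at a threshold of 0.58 and 3 at 2. With normexp and loess, 598 genes were below -1 in FaDu and 566 in PC3 under miR-99a-3p, against 1797 and 1519, and the share of calls that were lower went from 85.1% to 25.9% under miR-99a-5p, 77.2% to 30.3% under miR-100-3p, 78.5% to 42.1% and 88.9% to 78.4% under the siRNAs, and 87.1% to 76.8% and 71.3% to 55.3% under miR-150-5p and miR-150-3p. The heme medians in both lines were between -0.20 and -0.07 in every setting. By Spearman correlation TMEM14B was at rank 1, and 2 of the 10 most alike genes were shared. Causes were not tested.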

Other observations

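By the higher of the PC3 and FaDu ratios under miR-99a-3p, the gene ahead of TMEM14C was MBD2, which encodes a protein that binds methylated DNA, at -2.62 (error 0.32) in PC3 and -2.31 (error 0.30) in FaDu cells. It was named after its values were seen.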
